A study of Mus musculus with 3 samples.

Results

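Csf1, the colony-stimulating factor that macrophages (Mφs) need for survival, and 4 receptor genes of the colony-stimulating factors, Csf1r, Csf3r, Csf2ra and Csf2rb, were followed across the immune cells of the gut muscle layer. They were chosen by name, though with earlier results of these data known. They were 5 of the 14148 genes listed in the deposited tables of unique molecular identifier (UMI) counts. Each UMI stands for 1 captured transcript. Sorted CD45+ cells, that is leukocytes, came from the small intestinal muscularis externa of female wild-type C57BL/6J mice, 12 weeks old. There were 3 droplet-based single-cell libraries: 1 from naïve mice, 1 from mice 24 h and 1 from mice 72 h after intestinal manipulation, a surgical handling of the bowel that inflames the muscularis. Each library pooled 3 to 4 mice, so that no replicates exist, an effect of time cannot be told apart from one of the library, and no test was run. Ratios below therefore compare single libraries, or groups of cells within or across them, and where an interval is given it covers counting error only. Sham-operated mice were not analysed here.

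CSF1, together with a second ligand, IL-34, signals through the receptor tyrosine kinase CSF1R, on which monocyte-derived and tissue Mφs, those of the gut muscularis included, depend for survival and differentiation. GM-CSF signals through a ligand-binding α chain encoded by Csf2ra and a signalling β chain encoded by Csf2rb, which the receptors for IL-3 and IL-5 share, and G-CSF signals through a homodimer of the Csf3r product, the receptor that drives the production and release of neutrophils. The cytokine receptors act through JAK2 and STAT proteins, whereas CSF1R recruits adaptors and phosphoinositide 3-kinase to its own phosphorylated tyrosines.

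The libraries held 652 naïve cells with 1865221 UMIs, 2211 cells at 24 h with 10542346 UMIs and 1239 cells at 72 h with 5246731 UMIs. Median UMIs per cell were 2134.5, 4669 and 3295, and 3 cell barcodes were found in more than 1 library. Cells were clustered without the 5 genes and named from marker genes. Monocyte/Mφ-like cells numbered 139, 1547 and 573 in the naïve, 24 h and 72 h libraries, DC-like cells 30, 122 and 166, neutrophil-like cells 12, 398 and 108, T cell-like cells 130, 6 and 28, and B cell-like cells 268, 34 and 50. A lymphoid cluster left unnamed, cluster 9, held 58, 65 and 108 cells. It passed 7 of 9 NK/ILC markers, but its leading genes held 2 T cell markers against 1 NK/ILC marker. The cluster with the highest Siglecf, a lectin of eosinophils and some neutrophils, held 15, 39 and 206 cells and is called the Siglecf-high cluster. It passed 6 neutrophil markers and only 1 of 4 measured eosinophil markers, with Ccr3, Alox15 and Prg2 at 0 UMIs. Siglecf stood at 368 CPM (the summed UMIs of a gene scaled to 1000000 UMIs of the group) in it against 74.7 in neutrophil-like cells, and Retnlg, a granule-associated neutrophil transcript, at 23.3 against 3113. Neutrophil-like cells and the Siglecf-high cluster were shallow, with medians of 756 to 1266 UMIs per cell against 3315 to 5927 in monocyte/Mφ-like cells. Of the marker lists of cells outside the sort, glia reached 0, 6 and 6 summed UMIs in the naïve, 24 h and 72 h libraries, fibroblasts 2, 3 and 16, epithelium 28, 8 and 29, smooth muscle 30, 67 and 130, and endothelium 83, 239 and 154. Their part in the results was not tested.

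The RefSeq sequence upstream of the start site (GRCm38.p6) is shown for the 3 genes that have an entry, because 3 short motifs of myeloid regulators were looked for there on both strands: GAGGAA, a PU box bound by the product of Spi1, TTGCNNAA, a core of C/EBP sites, and TGTGGT, the RUNX core. Capitals mark GAGGAA. The Csf1 window, chr3:107760470-107760719 on the minus strand, ended at the start site and held none of the motifs. For Csf3r, at chr4:126024409-126024579 on the plus strand, the 171 bases end 79 bases before the RefSeq start, and the single GAGGAA lay 80 bases before that start. The Csf2ra window, chr19:61228419-61228668 on the minus strand, held GAGGAA side by side at 8 and 2 bases before the start, without overlap. Of 27018 promoters, 23.1% held GAGGAA within the same 250 bases and 16.4% within the shorter 171-base stretch. The corresponding shares were 9.56% and 7.09% for TTGCNNAA and 14.2% and 9.85% for TGTGGT. By the GENCODE annotation both Csf3r and Csf2ra start further upstream than in RefSeq, so that the GAGGAA of Csf3r and, wholly or in part, those of Csf2ra lie inside the annotated gene. A match describes letters only, and binding was not measured.
Csf1: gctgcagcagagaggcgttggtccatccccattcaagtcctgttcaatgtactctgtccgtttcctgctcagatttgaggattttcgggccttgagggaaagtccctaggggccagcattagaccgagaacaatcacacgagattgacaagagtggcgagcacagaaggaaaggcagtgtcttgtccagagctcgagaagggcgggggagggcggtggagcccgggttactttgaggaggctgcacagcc
Csf3r: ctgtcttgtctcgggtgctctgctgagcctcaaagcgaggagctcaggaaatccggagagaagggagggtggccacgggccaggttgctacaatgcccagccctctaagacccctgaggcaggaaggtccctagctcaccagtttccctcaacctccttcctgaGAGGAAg
Csf2ra: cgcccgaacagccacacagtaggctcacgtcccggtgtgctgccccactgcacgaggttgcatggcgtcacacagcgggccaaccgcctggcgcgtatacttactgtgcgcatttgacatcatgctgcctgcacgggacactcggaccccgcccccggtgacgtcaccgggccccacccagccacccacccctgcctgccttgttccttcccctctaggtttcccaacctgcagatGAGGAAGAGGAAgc

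In the GENCODE annotation of GRCm38, Csf1 lies at chr3:107741048-107760469 on the minus strand, Csf1r at chr18:61100598-61132149 on the plus strand, Csf3r at chr4:126024550-126044440 on the plus strand, Csf2ra at chr19:61223957-61228429 on the minus strand and Csf2rb at chr15:78325752-78353847 on the plus strand. Csf2rb has a close copy nearby, Csf2rb2, at chr15:78282507-78305721 on the minus strand, which encodes the IL-3-specific β chain of the mouse. Of the 31-base words of the longest coding Csf2rb transcript (4900 bases), 28.0% were shared with Csf2rb2, but only 2.78% in its last 1000 bases, the end that a 3′ kit reads.

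Csf1 made up a far larger part of the transcripts of granulocytes than of those of monocyte/Mφ-like cells. At 24 h Csf1 stood at 357 CPM in neutrophil-like cells (95% interval 301 to 421, from 141 UMIs), at 172 (55.7 to 400.4, from 5 UMIs) in the Siglecf-high cluster and at 8.32 (6.54 to 10.4, from 75 UMIs) in monocyte/Mφ-like cells. At 72 h the Siglecf-high cluster reached 404 CPM (324 to 499.5, from 86 UMIs), neutrophil-like cells 203 (136 to 292, from 29 UMIs) and monocyte/Mφ-like cells 5.82 (3.45 to 9.20, from 18 UMIs). In both libraries the granulocyte intervals lay above the monocyte/Mφ interval without overlap.

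The naïve library held few granulocytes, and Csf1 there rested on 2 UMIs in 12 neutrophil-like cells, 4 UMIs in 15 cells of the Siglecf-high cluster and 2 UMIs in 139 monocyte/Mφ-like cells. DC-like cells had 0, 3 and 6 Csf1 UMIs in the naïve, 24 h and 72 h libraries, where the count of 0 allows up to 22.5 CPM. B cell-like cells had 0 Csf1 UMIs in all 3 libraries, which allows up to 4.08, 38.7 and 17.4 CPM, and cluster 9 had 1 UMI in each. No lymphoid group had more than 1 Csf1 UMI in a library.

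Neutrophil-like cells exceeded monocyte/Mφ-like cells in Csf1 by 42.9 times at 24 h (32.2 to 57.6) and 34.9 times at 72 h (18.7 to 66.7). The Siglecf-high cluster exceeded monocyte/Mφ-like cells by 69.5 times at 72 h (41.5 to 123), a ratio that came to 38.0 when each cell was thinned to 1500 UMIs, which left 22 of its 206 cells, and to 34.1 when each cell was thinned to 500 UMIs, which left out none. In summed CPM, Csf1 was lower at 72 h than at 24 h in neutrophil-like cells. The share of these cells with a Csf1 UMI, thinned to 500 UMIs and given below, was not lower at 72 h. The CPM ratio of Csf1 at 72 h over 24 h was 0.57 (0.37 to 0.85) in neutrophil-like cells. In the Siglecf-high cluster it was 2.36 (0.97 to 7.45), an interval reaching below 1. Between the 2 granulocyte groups, the Siglecf-high cluster had 0.480 times the Csf1 of neutrophil-like cells at 24 h (0.154 to 1.15) and 1.99 times at 72 h (1.29 to 3.15).

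**Figure D1:**
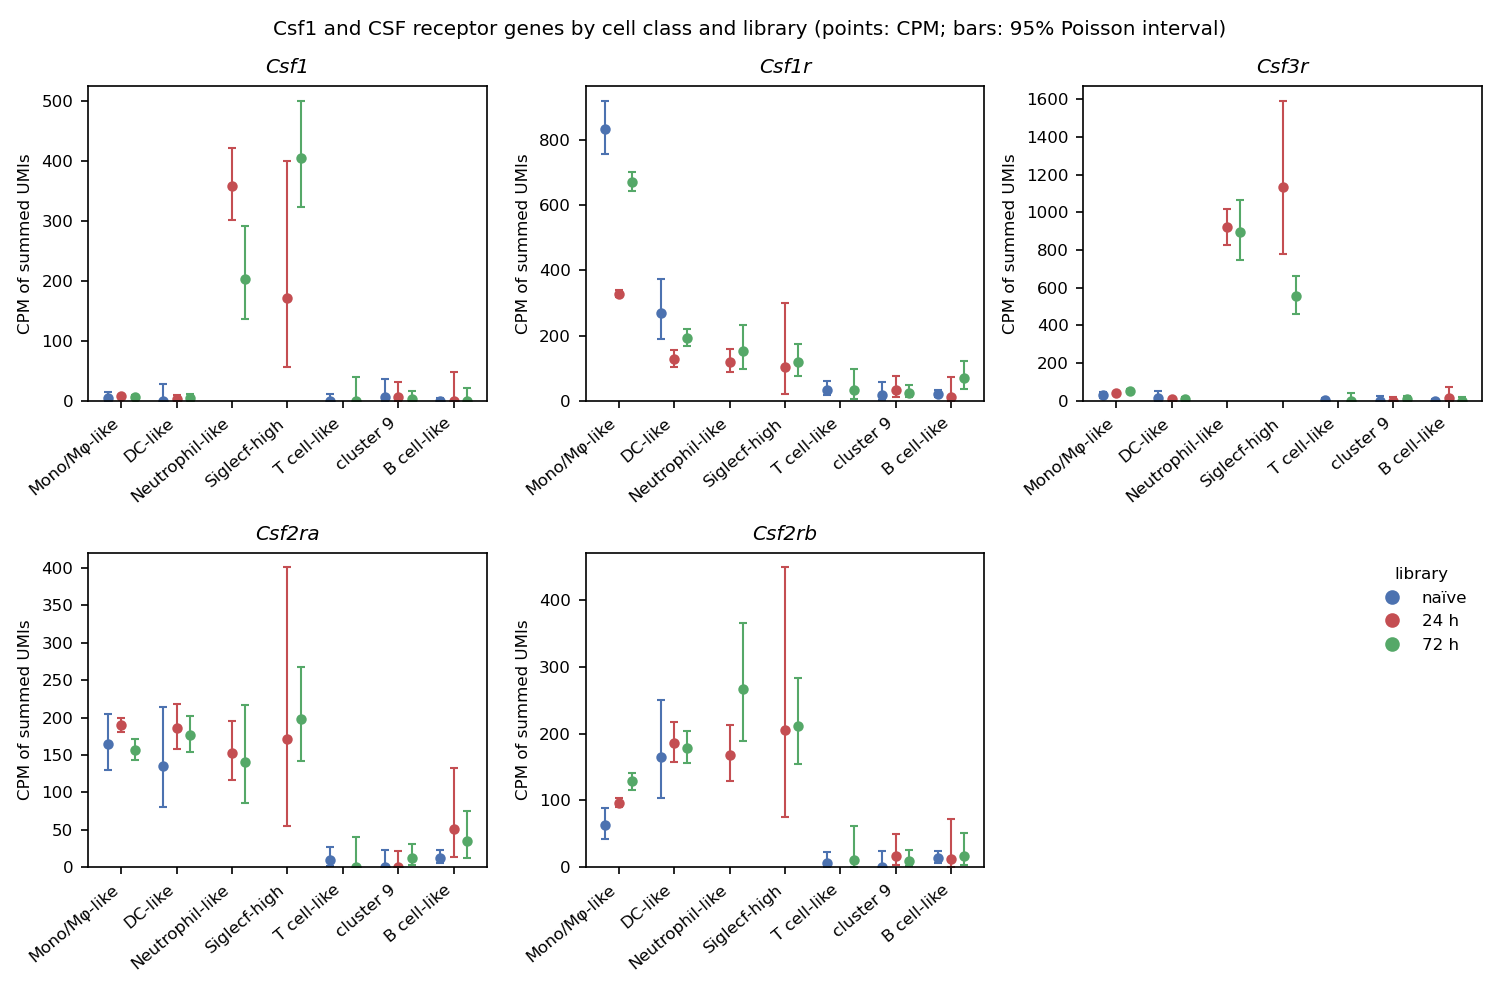
CPM of each of the 5 genes (y axis, linear, from 0) by cell class and library for groups of at least 20 cells, with points for the CPM and bars for the exact 95% Poisson interval of the summed UMIs. Csf1 and Csf3r are highest in the granulocyte groups, with Csf1 at 357 CPM in neutrophil-like cells at 24 h against 8.32 in monocyte/Mφ-like cells, whereas Csf1r is highest in monocyte/Mφ-like cells.

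Among neutrophil-like cells at 24 h Csf1 was uneven. Cluster 13, led by Acod1 and Il1f9, stood at 687 CPM (507 to 911, from 48 UMIs in 19 of 48 cells). Cluster 1, led by Retnlg and S100a9, stood at 286 (231 to 351, from 93 UMIs in 61 of 350 cells). The ratio of cluster 13 over cluster 1 was 2.40 (1.66 to 3.43).

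The share of cells with at least 1 Csf1 UMI was 20.1% of neutrophil-like cells at 24 h (80 of 398, median 894.5 UMIs per cell), 28.6% of the Siglecf-high cluster at 72 h (59 of 206, median 954.5) and 3.88% of monocyte/Mφ-like cells at 24 h (60 of 1547, median 5927). In cluster 9, a lymphoid background, it was 1.54% at 24 h (1 of 65, median 2400). Granulocytes thus held Csf1 in a larger share of cells at a lower depth. Thinned to 500 UMIs, the shares were 14.6% in neutrophil-like cells at 24 h, 14.8% at 72 h and 18.9% in the Siglecf-high cluster at 72 h, against 0, 0.323% and 0.698% of monocyte/Mφ-like cells in the naïve, 24 h and 72 h libraries. Free RNA adds UMIs to cells that do not make a transcript. Csf1 UMIs per cell were 0.0485 in monocyte/Mφ-like cells at 24 h and 0.0154 in cluster 9, against 0.354 in neutrophil-like cells, and the part of free RNA in the monocyte/Mφ value was not tested.

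The class that held most Csf1 UMIs differed between the 24 h and 72 h libraries. The whole libraries held 9, 226 and 140 Csf1 UMIs. Of those at 24 h, 62.4% were in neutrophil-like and 33.2% in monocyte/Mφ-like cells. At 72 h, 61.4% were in the Siglecf-high cluster, 20.7% in neutrophil-like and 12.9% in monocyte/Mφ-like cells. These shares concern CD45+ cells, and Csf1 of cells outside the sort was not measured.

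**Figure D2:**
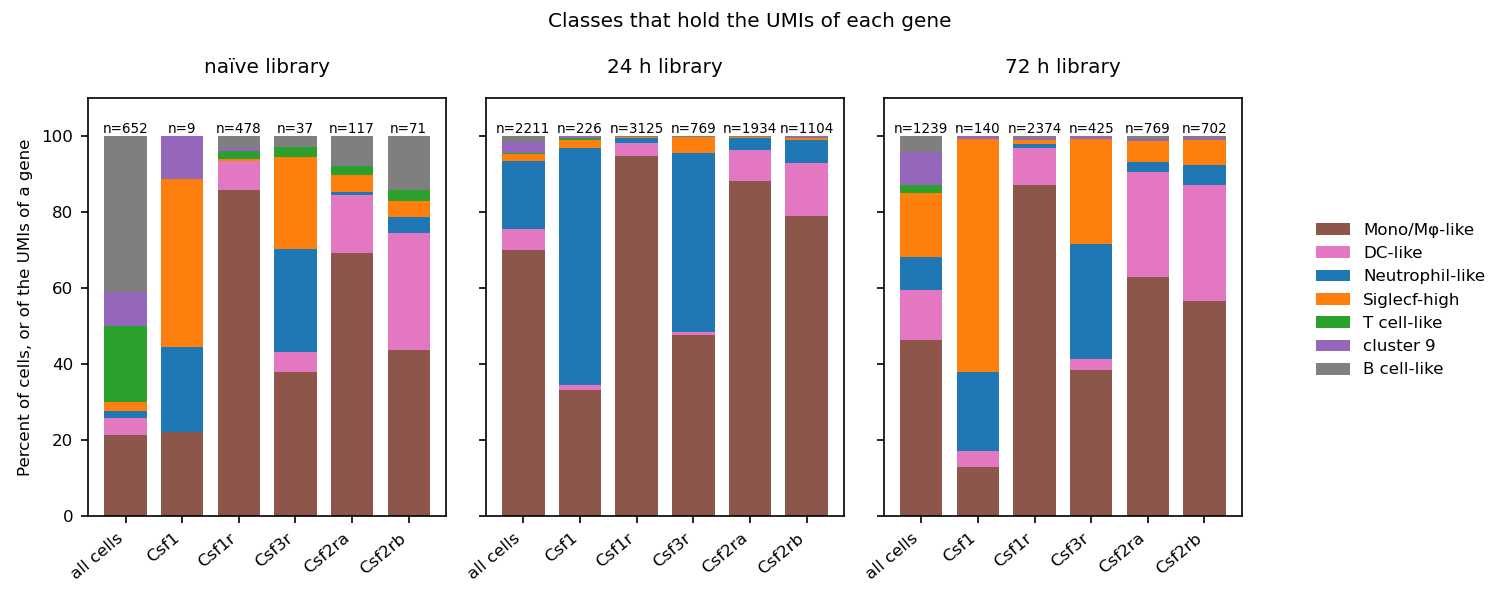
Percent of each library's UMIs of a gene (y axis) that fell in each cell class, as stacked bars for the 5 genes and 3 libraries, beside the percent of all cells in each class. For Csf1 the largest source is neutrophil-like cells at 24 h (62.4%) and the Siglecf-high cluster at 72 h (61.4%), whereas monocyte/Mφ-like cells hold 86.0%, 94.8% and 87.3% of Csf1r.

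Csf1r, the CSF1 receptor, was the gene of monocyte/Mφ-like cells and was lowest there at 24 h. It stood at 834 CPM (755 to 918, from 411 UMIs) in the naïve library, 328 (317 to 340.5, from 2961 UMIs) at 24 h and 670.2 (642 to 699.7, from 2073 UMIs) at 72 h. The 3 intervals did not overlap. The ratio of 24 h over naïve was 0.394 (0.355 to 0.438), that of 72 h over 24 h was 2.04 (1.93 to 2.16), and that of 72 h over naïve was 0.804 (0.723 to 0.896). Different clusters made up the class in each library, as given below.

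Read against all genes of monocyte/Mφ-like cells with at least 20 UMIs over a pair of libraries, a 2-fold difference was not rare. From naïve to 24 h, 13.8% of 9668 genes had a ratio of at least 2 and 12.5% a ratio of at most 0.5. Of the 5 genes, Csf1r was past the lower limit, and Csf1 past the upper with a ratio of 2.05 (0.548 to 17.2) that rests on 2 naïve UMIs. Csf1r was the 1 gene of the 5 with a ratio of at least 2 from 24 h to 72 h, where 7.32% of 10090 genes had one and 4.29% had a ratio of at most 0.5. From naïve to 72 h the 1 gene was Csf2rb, where the shares of 8411 genes were 7.99% and 5.03%. Over all genes the median ratios of the 3 pairs were 1.04, 1.01 and 1.03, and over the 5 genes 1.43, 1.30 and 1.43.

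In DC-like cells Csf1r was also lowest at 24 h in CPM, with 270.1 CPM (189 to 374), 128 (105 to 155) and 192 (168 to 219) in the naïve, 24 h and 72 h libraries. Its ratios were 0.47 (0.32 to 0.71) for 24 h over naïve and 1.50 (1.19 to 1.91) for 72 h over 24 h. The share of DC-like cells with a Csf1r UMI did not follow this order, at 9 of 30, 58 of 122 and 85 of 166 cells unthinned and 16.0%, 17.4% and 23.5% thinned to 1500 UMIs, so the naïve CPM rests on 36 UMIs in 9 cells. Monocyte/Mφ-like cells held 3.09, 2.57 and 3.49 times the Csf1r of DC-like cells.

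Csf1r in granulocytes could not be set apart from background in every measure. Per cell, neutrophil-like cells had 0.118 and 0.204 Csf1r UMIs at 24 h and 72 h and the Siglecf-high cluster 0.0769 and 0.121. Cluster 9, a lymphoid group that should lack the receptor, had 0.0923 and 0.0741, and B cell-like cells 0.0294 and 0.24. Monocyte/Mφ-like cells had 1.91 and 3.62. The share of cells with a Csf1r UMI at 24 h was 11.8% of neutrophil-like cells (8.81% to 15.4%, median 894.5 UMIs) and 9.23% of cluster 9 (3.46% to 19.0%, median 2400), which overlap. Thinned to 500 UMIs it was 6.28% (4.11% to 9.13%) against 0 of 65 cells. As CPM, granulocytes reached 103 to 154 at these times and lymphoid groups of at least 20 cells 12.9 to 69.6. The part of free RNA in the granulocyte values was not tested, and they are not read as expression.

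The difference in Csf1r between the libraries was also seen cell by cell at equal depth. Unthinned, 88.5%, 74.5% and 86.6% of monocyte/Mφ-like cells in the naïve, 24 h and 72 h libraries had at least 1 Csf1r UMI, with median depths of 3315, 5927 and 5334 UMIs. With each cell thinned to 1500 UMIs, which kept 121, 1471 and 532 cells, the shares were 77.7%, 35.4% and 62.4%. Cells with 2 or more Csf1r UMIs made up 37.2%, 8.77% and 26.3%. For comparison, 5.38% of naïve T cell-like cells had a Csf1r UMI unthinned (median 2357.5 UMIs) and 5.45% thinned. Both the share of cells with the receptor transcript and the number of transcripts in them were lowest in the 24 h library.

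**Figure D3:**
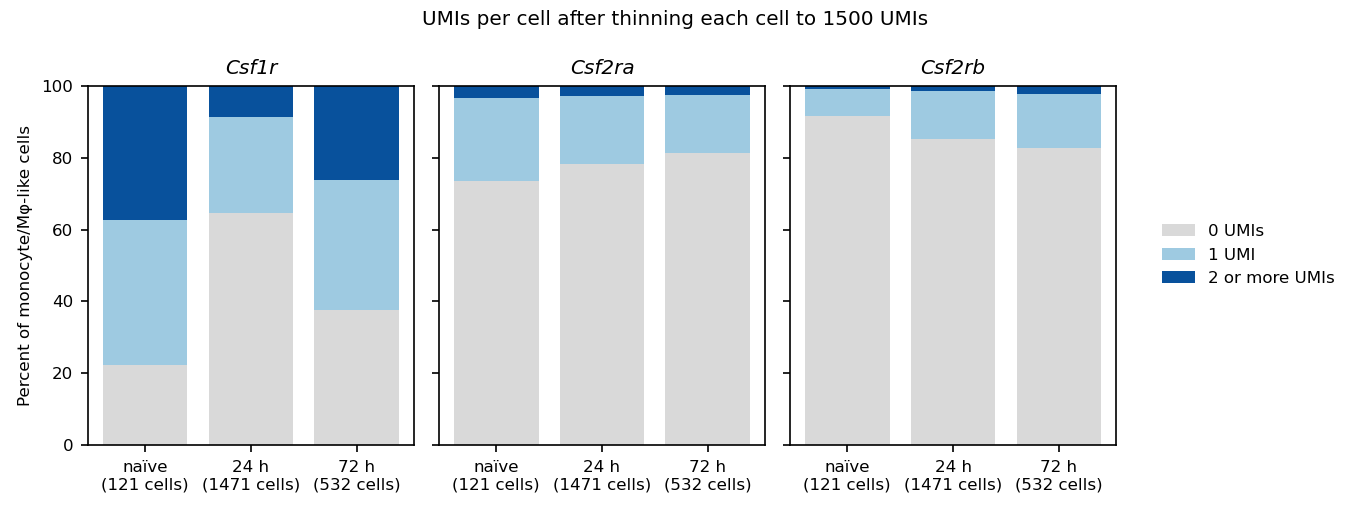
Percent of monocyte/Mφ-like cells (y axis) with 0, 1 or at least 2 UMIs of Csf1r, Csf2ra and Csf2rb in each library after each cell was thinned to 1500 UMIs. Cells with at least 2 Csf1r UMIs make up 37.2% of naïve, 8.77% of 24 h and 26.3% of 72 h cells.

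Monocyte/Mφ-like cells were clustered again to follow Csf1r through the subsets, most of which came largely from 1 library. In the naïve library 72 of the 139 cells were Cx3cr1+, named for the fractalkine receptor of resident gut Mφs, and 28 were Cd206+ (Mrc1, a mannose receptor of tissue Mφs). At 24 h there were 333 Ly6c+ monocyte-like cells, 196 Ccr2+ int cells with MHC class II genes, 411 Fabp5+ cells, 51 Arg1+ cells and the unnamed clusters M2 with 282 and M5 with 246 cells. Arg1+ is a name from 4 of 6 markers, and Cxcl3, Slc7a11 and Il1rn were among its leading genes. Arg1 itself was not among them but was among the leading genes of M2, of which Ltc4s came first. M5 was shallow, with a median of 2101 UMIs per cell and Gm42418 and mt-Nd3 among its leading genes. Interferon-induced genes such as Ifit3 were among those leading Ly6c+ cells and Igkc, an immunoglobulin gene, led Cx3cr1+ cells. A further unnamed cluster, M9, had B-cell genes and at most 20 cells in a library, and is not drawn. The 72 h library held 250 Cd206+, 127 Timp2+, 70 Ccr2+ int, 28 Ly6c+, 23 Arg1+ and 20 Cx3cr1+ cells.

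Among subsets of at least 20 cells in a library, Csf1r was highest in Cx3cr1+ and Cd206+ cells. The lowest values were those of the 24 h subsets and of Ly6c+ cells at 72 h. In Cx3cr1+ cells Csf1r stood at 989.6 CPM (863 to 1130.1) in the naïve and 831 (672 to 1017) in the 72 h library, and in Cd206+ cells at 822 (655 to 1019) and 771 (725 to 819.6). The 72 h over naïve ratios were 0.84 (0.652 to 1.07) and 0.938 (0.749 to 1.19), and neither interval left 1. Within these 2 subsets no difference between the naïve and 72 h libraries was thus detectable at this depth, where ratios below 0.652 in Cx3cr1+ and below 0.749 in Cd206+ cells lie outside the intervals.

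The 3 subsets with at least 20 cells at both 24 h and 72 h had more Csf1r in the later library. Ccr2+ int cells went from 464 CPM (428 to 501) to 588 (524 to 657), a ratio of 1.27 (1.10 to 1.45). Ly6c+ cells went from 358 (334 to 384) to 462 (366 to 575), a ratio of 1.29 (1.01 to 1.62), and Arg1+ cells from 321 (254 to 399) to 651 (486 to 853), a ratio of 2.03 (1.40 to 2.91). All 3 ratios lay above 1, that of Ly6c+ cells barely.

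At 24 h the order of Csf1r was Ccr2+ int, Ly6c+, M9 with 323 (236 to 431, from 20 cells), Arg1+, M2, Fabp5+ with 268 (249 to 287) and M5 with 251 (212 to 294). Ccr2+ int cells had 1.29 times (1.16 to 1.44) and Fabp5+ cells 0.747 times (0.676 to 0.825) the level of Ly6c+ cells. M2 stood at 308 (280.1 to 339). From Ly6c+ cells, at 358 (334 to 384), down to M5 each interval overlapped the next in this order, so that neighbours there were not told apart. The interval of M9 also reached that of Ccr2+ int cells. Csf1r at 72 h was 1.30 times higher in Cd206+ than in Timp2+ cells (1.15 to 1.47), the latter standing at 592 (532 to 656). The Cd206+ level at 72 h was 2.15 times that of Ly6c+ cells at 24 h (1.96 to 2.36). Of the Csf1r UMIs of the class, Cx3cr1+ cells held 53.0% in the naïve library, beside 44.7% of all UMIs of the class. At 24 h Ly6c+ cells held 27.3% of Csf1r beside 24.97% of all UMIs, and Fabp5+ cells 26.6% beside 32.7%. Cd206+ cells at 72 h held 49.5% beside 43.1%. These shares thus largely follow subset size, and Fabp5+ cells held a smaller part of Csf1r than of all UMIs.

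**Figure D4:**
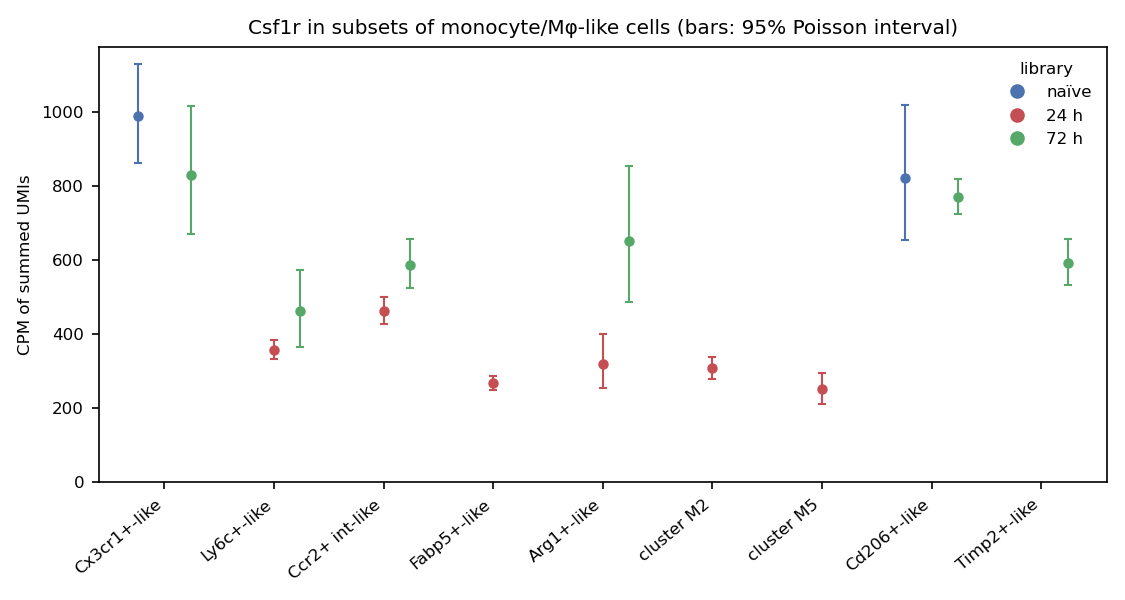
Csf1r CPM (y axis, from 0) in subsets of monocyte/Mφ-like cells with at least 20 cells in a library, with points for the CPM and bars for the exact 95% Poisson interval. Cx3cr1+ and Cd206+ cells stand at 771 to 989.6, and the 24 h subsets at 251 to 464.

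Csf3r, the G-CSF receptor, was highest in granulocytes, and in neutrophil-like cells the 24 h and 72 h libraries differed by less than counting error. There it stood at 919.8 CPM (828 to 1019, from 363 UMIs) at 24 h and 896 (748 to 1065, from 128 UMIs) at 72 h, a ratio of 0.97 (0.79 to 1.19). The 12 naïve neutrophil-like cells gave 10 UMIs. In the Siglecf-high cluster it stood at 1132 (779 to 1590.1, from 33 UMIs) at 24 h and 555 (459 to 665, from 118 UMIs) at 72 h, a ratio of 0.49 (0.33 to 0.74). At 24 h both granulocyte groups overlapped in Csf3r, with a ratio of Siglecf-high over neutrophil-like cells of 1.23 (0.835 to 1.76), and at 72 h that ratio was 0.619 (0.478 to 0.802). The Siglecf-high cluster at 72 h thus stood above neutrophil-like cells for Csf1 and below them for Csf3r.

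The 2 neutrophil-like clusters stood in opposite order for Csf3r and Csf1 as well. At 24 h cluster 1 had 1047 CPM of Csf3r (938 to 1164) and cluster 13 had 329 (209 to 494), a ratio of 3.18 (2.08 to 5.09).

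Monocyte/Mφ-like cells held little Csf3r, at 28.4 CPM (15.5 to 47.6, from 14 UMIs), 40.6 (36.5 to 45.0, from 366 UMIs) and 52.7 (44.9 to 61.4, from 163 UMIs) in the naïve, 24 h and 72 h libraries. The 72 h over 24 h ratio was 1.30 (1.07 to 1.57). Neutrophil-like cells exceeded them by 22.7 times at 24 h (19.5 to 26.3) and 17.0 times at 72 h (13.4 to 21.6). The share of cells with a Csf3r UMI was 54.8% of neutrophil-like cells at 24 h (218 of 398, median 894.5 UMIs) and 19.5% of monocyte/Mφ-like cells (302 of 1547, median 5927), against 0 of 65 cells of cluster 9 (median 2400), which allows a share of up to 4.62%. Thinned to 500 UMIs, 37.4% of neutrophil-like cells at 24 h, 38.0% at 72 h and 27.7% of the Siglecf-high cluster at 72 h held Csf3r, against 1.44%, 1.81% and 1.40% of monocyte/Mφ-like cells in the 3 libraries. Since monocyte/Mφ-like cells were so many and so deep, they still held 47.6% of the 769 Csf3r UMIs at 24 h, next to 47.2% in neutrophil-like cells. Their Csf3r UMIs per cell, 0.237 at 24 h, stood above those of cluster 9 and B cell-like cells, at 0 and 0.0294, but depth differed between these groups. As CPM at 24 h, cluster 9 had 0 with an interval up to 21.2, below that of monocyte/Mφ-like cells. B cell-like cells had 12.9 (0.327 to 71.9, from 1 UMI), an interval that overlaps it. The part of free RNA in the monocyte/Mφ value was not tested.

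The 2 chains of the GM-CSF receptor went different ways from 24 h to 72 h in monocyte/Mφ-like cells. As for Csf1r, different clusters made up the class in each library. Csf2ra, the α chain, stood at 164 CPM (130.5 to 204, from 81 UMIs), 189.6 (181 to 199, from 1709 UMIs) and 156 (143 to 171, from 484 UMIs) in the naïve, 24 h and 72 h libraries. Its ratio of 24 h over naïve was 1.15 (0.923 to 1.46), an interval that holds 1, and thinned to 1500 UMIs it fell on the other side of 1 at 0.792. From 24 h to 72 h it was 0.826 (0.745 to 0.914), and from naïve to 72 h 0.952 (0.751 to 1.22).

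Csf2rb, the shared β chain, stood higher in each later library, at 62.9 CPM (42.7 to 89.3, from 31 UMIs), 96.8 (90.5 to 103, from 873 UMIs) and 128 (116 to 142, from 397 UMIs). The ratio of 24 h over naïve was 1.54 (1.08 to 2.28), that of 72 h over 24 h was 1.33 (1.17 to 1.49), and that of 72 h over naïve was 2.04 (1.42 to 3.04). All 3 intervals lay above 1. Csf2rb2 was sparse in the same cells, with 13, 255 and 112 UMIs.

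**Figure D5:**
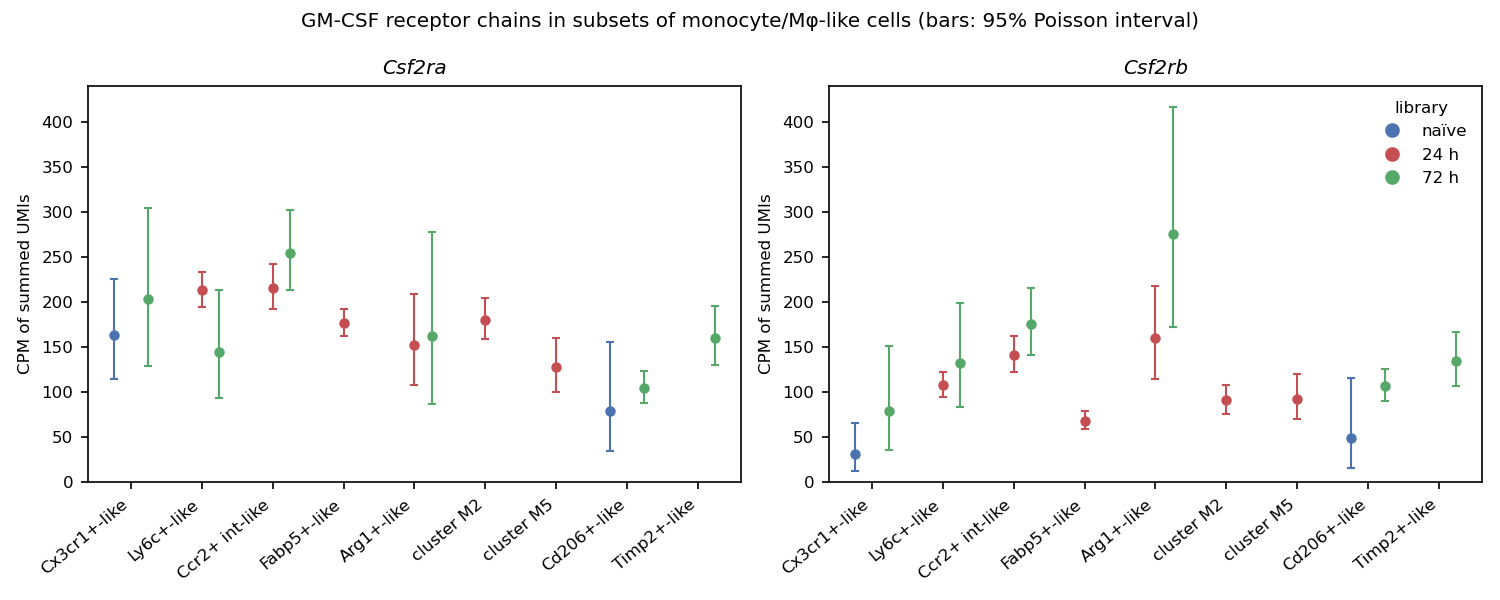
CPM (y axis, from 0) of Csf2ra and Csf2rb in subsets of monocyte/Mφ-like cells with at least 20 cells in a library, with bars for the exact 95% Poisson interval. Csf2ra is highest in Ccr2+ int cells (255 at 72 h) and Csf2rb in Arg1+ cells at 72 h (275).

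Across subsets of at least 20 cells in a library Csf2ra was highest in Ccr2+ int cells and lowest in Cd206+ cells. Ccr2+ int cells had 216 CPM (192 to 242) at 24 h and 255 (214 to 302) at 72 h, and Ly6c+ cells had 213 (195 to 233) at 24 h and 144 (93.4 to 213) at 72 h. M2 had 181 (159 to 204) and Fabp5+ cells 177 (162 to 193) at 24 h, and Timp2+ cells 161 (130 to 196) at 72 h. The Ccr2+ int over Ly6c+ ratio at 24 h was 1.01 (0.875 to 1.17). Cd206+ cells had 79.2 (34.2 to 156) in the naïve and 104 (87.7 to 123) in the 72 h library, and Ccr2+ int cells at 72 h exceeded them by 2.44 times (1.91 to 3.12). Cx3cr1+ cells, the other subset with high Csf1r, had 163 (114 to 226) in the naïve and 203 (129 to 305) in the 72 h library. The Csf2ra intervals of Cx3cr1+ and Cd206+ cells overlapped in the naïve and not in the 72 h library.

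Csf2rb at 24 h was highest in Arg1+ and Ccr2+ int cells and lowest in Fabp5+ cells. Arg1+ cells stood at 160.4 CPM (115 to 218) and Ccr2+ int cells at 141 (122 to 163), against 107 (94.4 to 122) in Ly6c+ and 68.6 (59.5 to 78.7) in Fabp5+ cells. The Arg1+ over Fabp5+ ratio was 2.34 (1.62 to 3.30), and that of Ccr2+ int over Fabp5+ cells 2.06 (1.68 to 2.52). Of the subsets with at least 20 cells, the lowest Csf2rb was in naïve Cx3cr1+ cells, at 31.8 (12.8 to 65.5, from 7 UMIs). Cd206+ cells at 72 h, at 107 (89.8 to 126), had 3.35 times that level (1.59 to 8.50), a ratio between different subsets. Within each of these subsets the naïve and 72 h intervals overlapped. Naïve Cd206+ cells stood at 49.5 (16.1 to 116, from 5 UMIs), and Cx3cr1+ cells at 72 h at 79.6 (36.4 to 151). At 72 h Arg1+ cells stood at 275 (173 to 417), Ccr2+ int cells at 176 (142 to 215) and Timp2+ cells at 134 (107 to 167).

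DC-like cells had Csf2ra levels near those of monocyte/Mφ-like cells and higher Csf2rb. Csf2ra stood at 135, 186 and 177 CPM in the naïve, 24 h and 72 h libraries, with DC-like over monocyte/Mφ-like ratios of 0.984 at 24 h and 1.13 at 72 h. Csf2rb stood at 165 (103 to 249.9), 185 (157 to 217) and 179 (156 to 204), intervals that overlap, and its ratios over monocyte/Mφ-like cells were 2.62 (1.45 to 4.68), 1.91 (1.60 to 2.27) and 1.39 (1.18 to 1.65). Whether these ratios differ between libraries was not tested.

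UMIs of both chains were also counted in granulocytes, and the part of free RNA in them was not tested. Neutrophil-like cells had 152 CPM of Csf2ra at 24 h and 140.0 at 72 h, and 167 (129 to 213) and 266 (188 to 365) of Csf2rb, a 72 h over 24 h ratio of 1.59 (1.04 to 2.41). The Siglecf-high cluster had 172 (55.7 to 400.4, from 5 UMIs) and 198 (142 to 267) of Csf2ra and 206 (75.5 to 448, from 6 UMIs) and 212 (154 to 283) of Csf2rb. Per cell, Csf2rb gave 0.166 and 0.352 UMIs in neutrophil-like cells against 0.0462 and 0.0278 in cluster 9. Csf2ra gave 0.151 and 0.185 in neutrophil-like cells, 0 and 0.037 in cluster 9, and 0.118 and 0.12 in B cell-like cells, so that its granulocyte counts stood less clear of the lymphoid ones. In T cell-like cells, cluster 9 and B cell-like cells with at least 20 cells Csf2rb stood at 0 to 17.4 CPM.

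Cells in which both GM-CSF receptor chains were captured were rare at equal depth. Thinned to 1500 UMIs, 2 of 121 naïve, 42 of 1471 24 h and 14 of 532 72 h monocyte/Mφ-like cells held both Csf2ra and Csf2rb, that is 1.65%, 2.86% and 2.63%. Csf2ra was seen in 2 of 10 naïve cells with Csf2rb, in 19.2% of such cells at 24 h and in 15.2% at 72 h, and in 27.0%, 22.0% and 19.5% of the cells without Csf2rb. A cell that carries both transcripts can lack either UMI at this depth.

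Of the other ligands of the family, Il34, Csf3 and Il3 were not among the genes listed, by a rule not given in the sources used here, so their levels are unknown. Neither Csf2 nor Il5 reached 20 UMIs over a pair of libraries in monocyte/Mφ-like cells. Csf2, which encodes GM-CSF, had 29, 17 and 19 UMIs in the whole libraries, 26, 9 and 17 of them in cluster 9. Il5 had 8 UMIs, all in cluster 9 at 72 h. The 2 sheddases that can release CSF1R from the surface, Adam10 and Adam17, stayed within 2-fold in monocyte/Mφ-like cells, at 56.8, 89.5 and 89.9 CPM and at 50.7, 51.4 and 50.1 CPM. Of the related receptors, 2, 3 and 2 were measured in the 3 pairs of libraries. Il3ra, the IL-3 receptor α chain that partners with Csf2rb, was 2.22 times higher at 24 h than in the naïve library (1.23 to 4.48) and 0.443 times as high at 72 h as at 24 h (0.338 to 0.573), and Flt3, the receptor of the DC growth factor FLT3L, had 0, 13 and 9 UMIs with a 72 h over 24 h ratio of 2.02 (0.761 to 5.10). Csf2rb2 had ratios of 1.07 (0.616 to 2.04) and 1.28 (1.02 to 1.60), and Kit, the stem cell factor receptor, had 0, 3 and 2 UMIs. Il5ra was not among the genes listed. Csf2rb thus stood higher and Il3ra lower at 72 h than at 24 h.

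Transcription factors of the myeloid lineage were past 2-fold in monocyte/Mφ-like cells about as often as all genes were from naïve to 24 h. Of 7 measured, 1 was past 2-fold upward and 1 downward from naïve to 24 h, 0 from 24 h to 72 h, and 1 downward from naïve to 72 h. Over all genes 13.8% were past upward and 12.5% downward from naïve to 24 h, 7.32% and 4.29% from 24 h to 72 h, and 7.99% and 5.03% from naïve to 72 h. The median ratios of the list were 0.81, 1.12 and 0.85, beside 1.04, 1.01 and 1.03 over all genes. Cebpb, a C/EBP factor of inflammatory myeloid cells, had a 24 h over naïve ratio of 2.11 (1.89 to 2.36), Runx1, whose product binds the RUNX core, one of 0.416 (0.317 to 0.553), and Irf8, a factor of monocyte and DC development, a 72 h over naïve ratio of 0.461 (0.383 to 0.557). Spi1, whose product PU.1 binds the PU box, stood at 586, 505 and 484 CPM in monocyte/Mφ-like cells in the 3 libraries.

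Of the signalling genes downstream of CSF1R, 0 of 10 measured were past 2-fold upward and 2 downward from naïve to 24 h, and 2 of 11 upward from 24 h to 72 h, with 0 either way from naïve to 72 h. Beside the 12.5% of all genes downward at 24 h and the 7.32% upward at 72 h, these small counts are not read as a result about the list. The median ratios were 0.83, 1.22 and 1.16. The downward pair was Pik3r1, a regulatory subunit of phosphoinositide 3-kinase, with a ratio of 0.471 (0.324 to 0.707), and Inpp5d, a phosphatase that counteracts that kinase, with 0.479 (0.363 to 0.644). The upward pair at 72 h was Gab2, an adaptor, with 2.28 (1.68 to 3.07), and the kinase gene Src with 5.25 (2.30 to 12.7). In CPM, Pik3r1 stood at 62.9 in the naïve library and 29.6 at 24 h, and Inpp5d at 114 and 54.5.

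Among 14 JAK-STAT genes of the GM-CSF and G-CSF receptors, 4 were past 2-fold upward and 1 downward from naïve to 24 h, 1 and 1 from 24 h to 72 h, and, of 13 measured, 3 and 1 from naïve to 72 h, beside 13.8% and 12.5%, 7.32% and 4.29%, and 7.99% and 5.03% of all genes. The median ratios were 1.16, 1.10 and 1.25. The feedback inhibitors did not move together. Socs3 had a 24 h over naïve ratio of 0.378 (0.311 to 0.463) and a 72 h over 24 h ratio of 2.41 (2.17 to 2.67), whereas Socs1 went the other way at 3.14 (0.851 to 26.3) and 0.330 (0.17 to 0.586). Cish, a target of STAT5, had a 24 h over naïve ratio of 5.91 (1.04 to 235) and a 72 h over naïve ratio of 7.65, Socs2 of 3.75 (1.02 to 31.2) and 3.90, and Stat5a, a STAT used by GM-CSF, of 2.10 (0.699 to 10.3) and 2.07 (0.659 to 10.5). These ratios of Socs1, Socs2, Cish and Stat5a over naïve rest on 1 to 3 naïve UMIs. Bcl2l1, a survival gene, had a 72 h over naïve ratio of 0.496 (0.318 to 0.796).

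Csf1 and Csf3r had like patterns, as had Csf2ra and Csf2rb, over the 18 groups of class and library with at least 20 cells. On the scale of log2(CPM + 10), Pearson's r was 0.94 between Csf1 and Csf3r, 0.91 between Csf2ra and Csf2rb, 0.78 between Csf1r and Csf2ra and 0.18 between Csf1 and Csf1r. The groups share 3 libraries and come from the same classes, so these values are descriptions. Of 3299 genes with at least 100 CPM in a group, the most like Csf1 were Id1 (0.98), G0s2, 2810474O19Rik, Gm17619 and Trem1 (0.96). For Csf3r they were Trem1 (0.97), Id1, Hdc, Hnmt and Fpr2 (0.97). G0s2 and Trem1 are among the genes that named the neutrophil-like cells. Among those most like Csf1r were Tbxas1 (0.95), Fn1, Anxa3 and Ccl12 (0.93), those most like Csf2ra were Marcks (0.96), Itgam, Asah1, Sgk3 and Rnf141 (0.94), and those most like Csf2rb were Rbm47 (0.96), Pilrb1, Alox5ap, Cd300a and Pilra (0.94). Across classes, the ligand gene Csf1 and its receptor gene Csf1r were thus highest in different cells of the same libraries.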

How the data were processed

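Sorted CD45+ cells of the mouse muscularis were measured in 3 libraries, each 1 sample. Per the labels, the authors used the 10x Genomics 3′ kit, and the submitters' processing notes name Cell Ranger 3.0.2 and GRCm38/mm10. The authors kept cells of at least 200 genes and at most 10% UMIs from mitochondrial genes, and deposited raw UMI counts per gene and cell. Strand use in the counting was not given in the sources used here, and CCR2-deficient libraries were not analysed here.

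Cells of all libraries were log-normalized and clustered together with Seurat 5.3.0 in R 4.3.3, without correction between libraries. This used 2000 variable genes from which the 5 genes and the pathway lists were left out, 30 principal components (20 for monocyte/Mφ-like cells), 20 neighbours, resolution 0.8 and seed 0. A cluster was named when at least 3 markers, each seen in at least 10% of its cells, exceeded their level elsewhere by 2-fold or more, or in a further round above cells already named, with a pseudocount of 10 CPM. It stayed unnamed where its leading genes held more markers of another class than of its own. Shallow clusters with no marker of their own among the leading genes were not named either. This scoring was written after the data were seen. Doublets were kept.

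UMIs were summed per class and library and scaled to CPM. Exact Poisson, Clopper-Pearson and conditional Poisson intervals cover 95% of counting error only, and limits for a count of 0 use 3 counts. The intervals were checked only on counts simulated with the Poisson error they assume. Those counts had no spread between cells, mice or libraries, so the check cannot speak to such spread. Groups under 20 cells got no ratio. Tables were handled with pandas 2.3.3, intervals computed with scipy 1.17.1 and numpy 2.4.6, doublets scored with scanpy 1.11.5 and plots drawn with matplotlib 3.10.9. The genes, lists and markers were chosen with earlier results of these data known. All 5 genes were given, then all ligands and related receptors, and of the other lists the genes past 2-fold in a pair of libraries. The 5 genes nearest in pattern were named for each, except 1 that is not reported here. Levels were compared within a gene, since capture differs between transcripts. Alternatives were other resolutions, components, seeds and cell filters, doublet removal, thinned cells and per-cell means.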

Additional observations from a re-analysis of the deposited data

How the results depend on the processing

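Of 99 recomputations of 9 ratios of Csf1r, Csf2rb, Csf2ra, Csf3r and Csf1, 90 moved by less than the counting interval, 9 moved by more and 0 changed the direction of a ratio whose interval leaves out 1. The 9 came from thinning the cells. Thinned to 1500 UMIs, with shallower cells left out, Csf1r in monocyte/Mφ-like cells was 0.333 for 24 h over naïve and 2.20 for 72 h over 24 h, Csf2ra 0.792 for 24 h over naïve, Csf3r 15.7 for neutrophil-like over monocyte/Mφ-like cells at 24 h, and Csf1 38.0 for the Siglecf-high cluster over monocyte/Mφ-like cells at 72 h. Only 42 of 398 neutrophil-like cells at 24 h and 22 of 206 Siglecf-high cells at 72 h remained. Thinned to 500 UMIs, Csf2rb was 1.77 and Csf2ra 0.607 for 72 h over 24 h, and the Csf3r and Csf1 ratios were 27.3 and 34.1. The cause was not tested, beyond the cells left out at 1500 UMIs.

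Of 69 recomputations of 14 ratios between subsets, 65 stayed within the interval and 4 moved, all thinned to 1500 UMIs: Csf1r 1.69 for Cd206+ over Timp2+ cells at 72 h, 1.76 for Ly6c+ cells at 72 h over 24 h and 1.47 for Ccr2+ int over Ly6c+ cells at 24 h, and Csf2rb 3.32 for Arg1+ over Fabp5+ cells at 24 h. Arg1+ cells at resolution 0.5 gave no value for Csf1r. The subset ratios, the thinning to 500 UMIs, the sum of Csf2rb and Csf2rb2 and the class without clusters M5 and M9 were chosen after seeing the data. No paired analysis was possible because each time point is 1 library and no test was run. Leaving out a replicate was likewise not possible. Depth limits Csf1 in monocyte/Mφ-like cells and every value of naïve granulocytes.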
